A study of Mus musculus with 5 samples.

Results

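When Tet1 was depleted in mouse embryonic stem cells in 3 ways, 64 genes differed from control in 1 shared direction, 29 of them higher and 35 lower in every depletion. These genes were chosen by the measured differences themselves: of 13613 genes with signal above a low-level filter, a gene entered the set when its log2 difference from the control array of its own cell line had 1 sign in all 3 depletions and a size of at least 0.585, which is 1.5-fold. The members make up 0.470% of the genes considered. Another 6 genes that met the rule, all of them lower and Tet1 and Gbx2 among them, were left out beforehand.

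The J1 cells were grown on mouse embryonic fibroblast feeders and received a control siRNA or an siRNA against Tet1 for 4 days. The E14 cells were grown feeder-free, were infected with lentivirus encoding a scramble shRNA, Tet1 shRNA3387 or Tet1 shRNA2863, and were collected after 4 days under puromycin. Both are established lines. Each of these 5 groups is 1 Affymetrix array, and both hairpins share the scramble array as their control. No difference therefore has a replicate error, and because the rule used each contrast between depleted and control arrays, the values of the members are given as a description with no p-value.

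Tet1 encodes a dioxygenase that converts 5-methylcytosine in DNA to 5-hydroxymethylcytosine, the first step towards its removal. In embryonic stem cells the enzyme is abundant and sits mainly at promoters rich in CpG dinucleotides, which its CXXC zinc finger recognises when they are unmethylated. It is known both to keep methylation away from such promoters and to act with repressor complexes, so that its loss can raise some transcripts and lower others.

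The brightest Tet1 probe set retained 17.2% of the control signal with the siRNA in J1, 30.6% with shRNA3387 and 54.0% with shRNA2863 in E14. The arrays called depleted were thus low in Tet1, by unequal amounts whose order depended on the probe set: in log2 differences it was -2.54, -1.71 and -0.89, while another gave -1.52, -1.80 and -1.01 and one more gave -2.84, -2.40 and -1.18. The remaining Tet1 probe set was under the filter level on every array. Markers of embryonic stem cells were well above background everywhere, with 12 of 12 genes kept and 0 at or under the filter level on any array, and their summed linear signal was 31867 and 24756 on the J1 control and siRNA arrays and 33068, 31563 and 30790 on the scramble, shRNA3387 and shRNA2863 arrays. With the siRNA all 12 of them were lower, by a median of -0.49 on the log2 scale and 4 past the threshold, among them Esrrb (-1.21) and Nanog (-0.88), while the medians with the hairpins were -0.11 and -0.08. Of 12 fibroblast markers, 9 were kept, and their summed signal was 213 and 180 on the J1 control and siRNA arrays and 147, 132 and 155 on the scramble, shRNA3387 and shRNA2863 arrays. Col1a2, the brightest of them in J1, weighs most in the gap between lines, at 6.24 and 5.95 in J1 and 3.62, 3.59 and 3.61 in E14. Trophectoderm markers summed to 7642 and 11357 in J1 and to 2342, 1778 and 3662 in E14, from 7 of 10 genes kept. Krt8 and Krt18 were the brightest of these on every array and dominate the sum, and Cdx2, Elf5 and Gata3 were not kept. The median log2 differences of the 7 were 0.71, -0.22 and 0.50 with the siRNA, shRNA3387 and shRNA2863. Primitive endoderm markers, also 7 of 10, summed to 519 and 704 in J1 and to 337, 314 and 301 in E14. Col4a1 (0.59, 0.19 and 0.45) was the brightest of them in J1 and dominates the sum there. Lama1 differed by -0.54, -0.67 and -1.17. The median log2 differences of the primitive endoderm markers were 0.25, -0.05 and -0.03. Primed epiblast markers, again 7 of 10, summed to 4386 and 3976 in J1 and to 4451, 6193 and 4610 in E14. Dnmt3b was the brightest of them on every array and dominates the sum. Their median log2 differences were -0.07, 0.53 and -0.02. Among them Otx2 differed by -2.03, 0.18 and -0.15, Fgf5 by 0.03, 3.74 and -0.02 and Pou3f1 by -0.18, 1.03 and 0.12. Past the threshold with both hairpins were Sox3, upwards (0.13, 2.88 and 1.79), and Zic2, downwards (0.01, -1.35 and -1.59). Of the markers of the 2-cell-like state, 0 were kept. The part of these cell types in the results below was not tested, and in RNA of whole cultures fewer cells of a type and less RNA per cell cannot be told apart.

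Sharing 1 direction was the usual pattern among genes past the threshold in every depletion. Before the 6 exclusions 70 genes had 1 sign throughout, whereas 12 genes were alike with both hairpins and opposite in J1, 3 higher and 9 lower there, and 3 genes differed in sign between the hairpins. The shared scramble array ties the hairpin differences to each other. In each comparison alone, the background of all genes past 0.585 was 2.91% higher and 6.09% lower with the siRNA, 5.39% higher and 3.36% lower with shRNA3387, and 3.63% higher and 3.26% lower with shRNA2863. All members pass these thresholds by construction. At 2-fold, the 29 higher genes numbered 5 with the siRNA, 11 with shRNA3387 and 8 with shRNA2863, beside 0.47%, 1.15% and 0.587% of all genes. The 35 lower genes numbered 11, 15 and 15 in the same order, beside 1.1%, 0.653% and 0.609%. The rule favours these member counts, since every member was already past 0.585. Of all genes past 0.585 upwards in a comparison, 64 of 396, 157 of 734 and 80 of 494 were at least 2-fold higher. Downwards, 150 of 830, 89 of 457 and 83 of 444 were at least 2-fold lower. Median differences of the higher members were 0.76, 0.94 and 0.88, those of the lower members -0.86, -0.89 and -0.92, and those of all genes -0.01, -0.02 and -0.01.

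**Figure D1:**
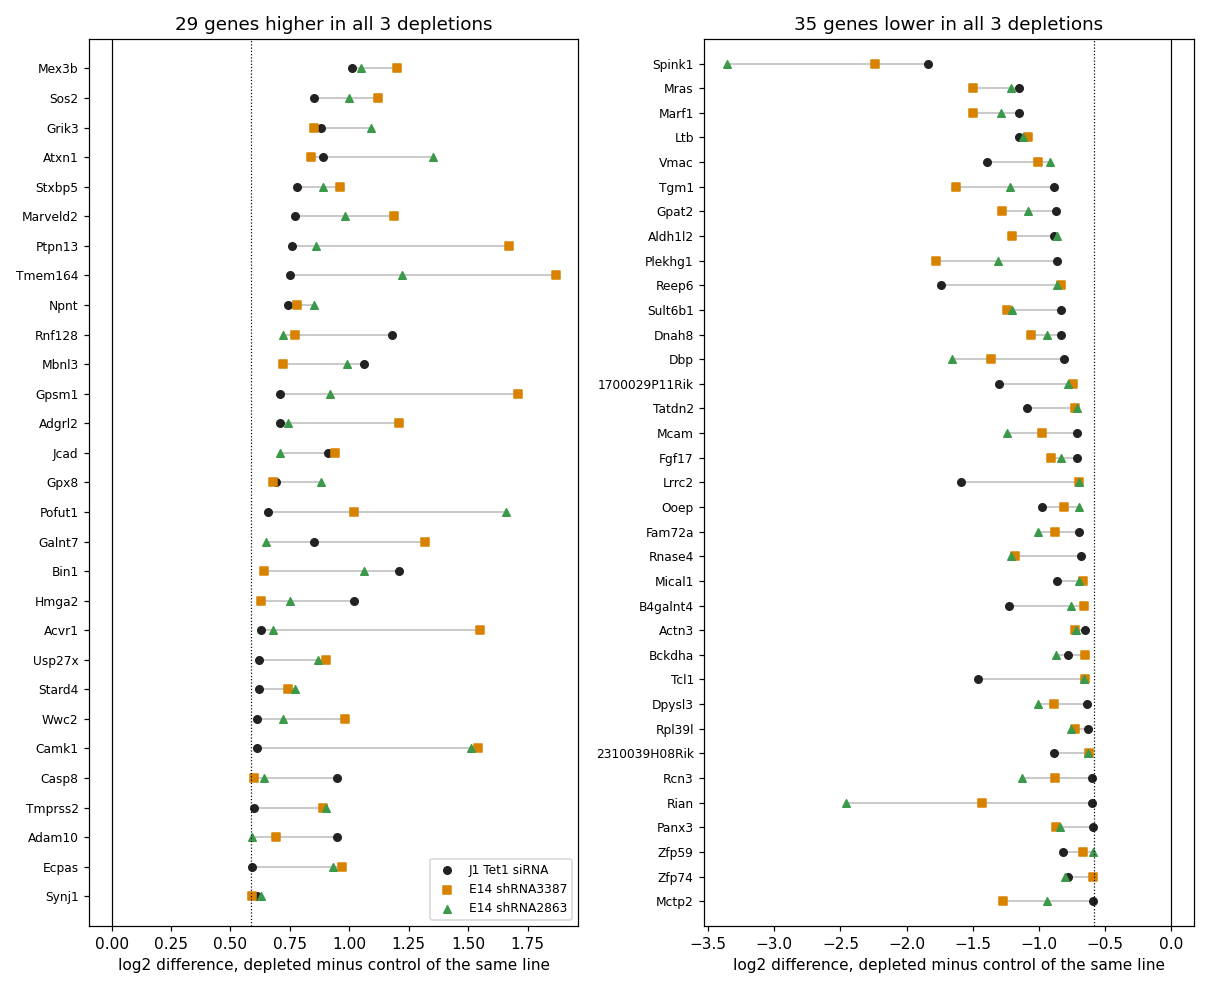
Log2 difference from the control array of the same line for each of the 29 higher (left) and 35 lower (right) genes, with 1 point per depletion and a grey line spanning the 3 points. The dotted line marks 0.585; most members cluster between it and 1, and Spink1 and Rian have the widest spread.

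**Figure D2:**
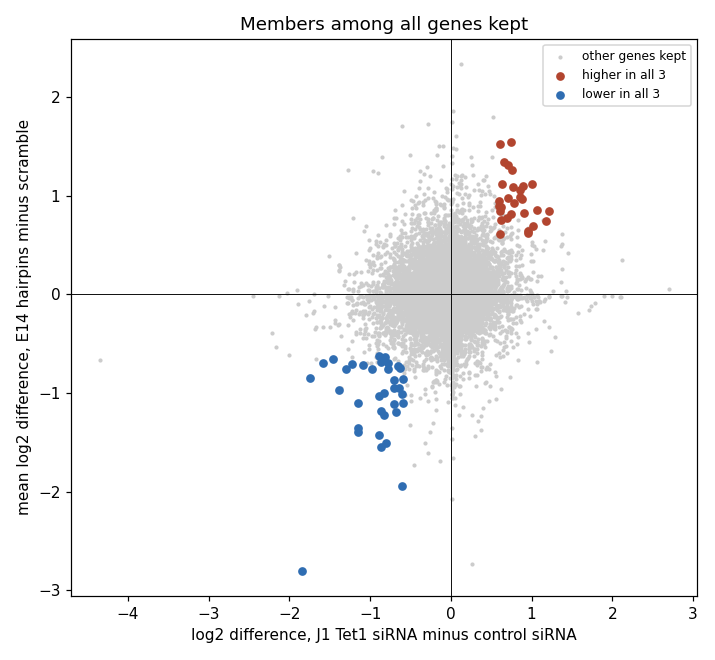
Each point is 1 gene, with its J1 siRNA difference on the x axis and the mean of its hairpin differences on the y axis, both log2. The 64 members lie at the edges of the upper right and lower left because the rule places them there.

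Levels below are log2 probe set values and are given in the order J1 control siRNA, J1 Tet1 siRNA, E14 scramble, shRNA3387, shRNA2863. The RNA-binding protein Mex3b, which carries KH domains and a RING finger and acts on transcripts after transcription, read 6.22, 7.23, 5.17, 6.37 and 6.22. It was 2.12-fold higher as the geometric mean of the 3 depletions, and 1 of the depleted arrays only equalled the J1 control. Mbnl3, a muscleblind splicing regulator, read 6.68, 7.74, 5.36, 6.08 and 6.35. Its E14 levels stayed below the J1 control on each array, so the shift shows only within a line. Of the 4 Mex3 genes, which were all kept, Mex3b alone passed the threshold upwards in any depletion.

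Among signalling genes, 7 were higher. Sos2, which loads Ras with GTP, read 6.38, 7.23, 5.19, 6.31 and 6.19, 1.99-fold higher on average. The kainate-type glutamate receptor subunit Grik3 read 5.40, 6.28, 5.42, 6.27 and 6.51, with both controls alike and all depleted arrays above them. Ptpn13, a large cytosolic tyrosine phosphatase, read 5.73, 6.49, 5.88, 7.55 and 6.74. Here the shRNA3387 array stood 0.81 above the shRNA2863 array. The latrophilin receptor Adgrl2 read 8.88, 9.59, 7.94, 9.15 and 8.68, the highest level in this group. The others were Gpsm1, a G-protein signalling modulator (1.71 with shRNA3387, the largest difference of the group), the BMP type I receptor Acvr1 (0.63, 1.55 and 0.68) and the calmodulin-dependent kinase Camk1 (0.61, 1.54 and 1.51).

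Surface proteins and the enzymes that modify them gave 7 more higher members. Marveld2, the tight junction protein tricellulin, read 5.13, 5.90, 4.8, 5.99 and 5.78, with all depleted arrays above both controls. The matrix protein nephronectin, Npnt, an integrin ligand, read 5.00, 5.74, 3.90, 4.68 and 4.75. Its E14 levels with hairpins did not reach the J1 control. Pofut1, which adds O-fucose to Notch, differed by 0.66, 1.02 and 1.66, and Adam10, the protease that sheds Notch and other ectodomains, by 0.95, 0.69 and 0.59. The remaining genes were the junctional protein Jcad (0.91, 0.94 and 0.71), the mucin-type glycosyltransferase Galnt7 (0.85, 1.32 and 0.65) and the serine protease Tmprss2 (0.60, 0.89 and 0.90).

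Vesicle and lipid traffic contributed 4 higher members. Stxbp5, the syntaxin-binding protein tomosyn, was the dimmest higher member at 3.20, 3.98, 3.20, 4.16 and 4.09. The inositol phosphatase Synj1, the membrane-bending protein Bin1 and the cholesterol carrier Stard4 had differences between 0.59 and 1.21. In the ubiquitin and proteasome group, Rnf128, a membrane-bound RING ligase, was the brightest higher member at 9.47, 10.65, 7.77, 8.54 and 8.49. All E14 arrays lay below all J1 arrays for this gene. With it were the deubiquitinase Usp27x (0.62, 0.90 and 0.87) and the proteasome adaptor Ecpas (0.59, 0.97 and 0.93).

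A further 6 higher genes share no common role. Tmem164 had the largest mean shift of the higher set, 2.43-fold, and read 5.09, 5.84, 5.09, 6.96 and 6.31. The Capicua partner Atxn1 read 3.91, 4.8, 3.94, 4.78 and 5.29, near the low end of the array. Hmga2, an architectural chromatin protein, differed by 1.02, 0.63 and 0.75, and the initiator caspase Casp8 by 0.95, 0.60 and 0.64. Wwc2, of the KIBRA family, differed by 0.61, 0.98 and 0.72, and the endoplasmic reticulum peroxidase Gpx8 by 0.69, 0.68 and 0.88. In all, 15 of the 29 higher members had their 3 depleted arrays above both controls, a separation seen at 3.83% of all genes and favoured here by the rule.

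Among the 35 lower members, 6 are genes known from oocytes or male germ cells. Marf1, which limits retrotransposons and other transcripts in mouse oocytes, read 6.07, 4.92, 7.19, 5.69 and 5.90, 2.49-fold lower on average. Gpat2, an acyltransferase of germ cells that associates with the piRNA machinery in mouse, read 4.16, 3.29, 4.37, 3.09 and 3.29. Its depleted levels were just above the filter level, which lay between 3.03 and 3.12 on the 5 arrays. The outer dynein arm heavy chain Dnah8 of sperm read 4.24, 3.41, 5.48, 4.42 and 4.54. Ooep, a component of the subcortical maternal complex, was the brightest lower member at a mean level of 8.97 and differed by -0.98, -0.81 and -0.70. The ribosomal protein paralogue Rpl39l differed by -0.63, -0.73 and -0.76. Tcl1, an Akt coactivator of naive stem cells, differed by -1.46, -0.65 and -0.66.

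Secreted proteins and cytokines gave 4 lower members. The trypsin inhibitor Spink1 read 4.04, 2.20, 8.26, 6.02 and 4.90, 5.58-fold lower on average, the largest mean shift of all 64 genes. Its J1 siRNA value lay under the filter level, and its E14 scramble value was 4.22 above the J1 control. The lymphotoxin subunit Ltb, a membrane-anchored cytokine of the TNF family, read 5.27, 4.12, 4.89, 3.81 and 3.77. Its 3 differences were the closest to each other among the genes past 2-fold throughout, with an SD of 0.04. Fgf17, a growth factor of the Fgf8 subfamily, differed by -0.71, -0.91 and -0.83, and the ribonuclease Rnase4 by -0.68, -1.18 and -1.21.

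The small GTPase Mras, which joins Shoc2 and a phosphatase to activate Raf, read 5.94, 4.79, 6.52, 5.02 and 5.31, 2.44-fold lower on average. All its depleted arrays lay below both controls. Plekhg1, which carries a pleckstrin homology domain, read 6.41, 5.55, 5.67, 3.89 and 4.36. Its J1 siRNA level was close to the scramble level of E14, so the depleted and control arrays were only just separate.

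Lower enzymes numbered 6. Tgm1, the transglutaminase that crosslinks the epidermal envelope, read 7.88, 6.99, 8.05, 6.42 and 6.83. Aldh1l2, which oxidises 10-formyltetrahydrofolate in mitochondria, read 4.60, 3.71, 4.64, 3.44 and 3.78. Sult6b1, a sulfotransferase, read 4.46, 3.63, 4.82, 3.58 and 3.62, from a probe set whose suffix marks probes that can match other transcripts. The branched-chain keto acid dehydrogenase subunit Bckdha differed by -0.78, -0.65 and -0.87. The glycosyltransferase B4galnt4 differed by -1.23, -0.66 and -0.76, and the TatD-family nuclease Tatdn2 by -1.09, -0.73 and -0.71.

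The cytoskeletal group held Vmac, a vimentin-associated protein, at 5.21, 3.82, 5.51, 4.50 and 4.59. With it were Mical1, an actin-oxidising monooxygenase, the alpha-actinin Actn3 and Dpysl3, a collapsin response mediator, whose differences ranged from -1.01 to -0.64. Membrane and endoplasmic reticulum proteins numbered 5. Reep6, which shapes the endoplasmic reticulum, read 6.46, 4.72, 7.32, 6.49 and 6.46. Its hairpin levels were those of the J1 control, while the siRNA array was far below. Mctp2, a calcium-binding membrane protein, differed by -0.59, -1.27 and -0.94, and the calcium-binding reticulocalbin Rcn3 by -0.60, -0.88 and -1.13.

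The adhesion molecule Mcam and the channel protein Panx3 also belong here and were hard to tell from background. Mcam read 2.87, 2.16, 4.26, 3.28 and 3.02, at or under the filter level on 3 arrays, and so passed the filter only through E14. Panx3 read 3.32, 2.73, 4.25, 3.38 and 3.41, under it on the J1 siRNA array. All 29 higher and 32 of the 35 lower members exceeded the filter level on all 5 arrays, the exceptions being Spink1, Mcam and Panx3.

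DNA-binding factors gave 3 lower members, the circadian activator Dbp (-0.81, -1.36 and -1.66) and the zinc finger genes Zfp59 (-0.82, -0.67 and -0.59) and Zfp74 (-0.78, -0.59 and -0.80). The imprinted noncoding RNA Rian differed by -0.60, -1.43 and -2.46 and was the only member annotated as a long noncoding RNA. Its shRNA3387 level stood 1.03 above that of shRNA2863. Fam72a differed by -0.70, -0.88 and -1.01, and the leucine-rich repeat gene Lrrc2 by -1.59, -0.70 and -0.70. The predicted genes 1700029P11Rik (-1.30, -0.74 and -0.78) and 2310039H08Rik (-0.89, -0.62 and -0.63) complete the set. In 18 of the 35 lower members all depleted arrays lay below both controls, a separation seen at 6.87% of all genes and favoured here by the rule.

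At the edge of the rule, Adam10, Ecpas and Synj1 entered the higher set at a smallest difference of 0.59, while Mrps21 and Vopp1 at 0.58 and Rnf217 at 0.56 fell outside. On the lower side Mctp2, Panx3 and Zfp59 entered at 0.59 in size, and Cpsf4l at 0.58 and Ccn4 and Myh6 at 0.57 fell outside. The deposited values carry 2 decimals.

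Other probe sets of a member read the same RNA through other oligonucleotides and often gave another answer. Of the 29 higher genes, 22 had other probe sets above the filter, 39 in all. Only 12 of these 39, or 30.8%, were higher in all 3 depletions, 6 of them past the threshold, and 2 were lower in all 3. Some of the 12 were nearly flat, as for 1 of Hmga2 (0.08, 0.01 and 0.18), or flat with the hairpins, as for 1 of Galnt7 (0.88, 0.03 and 0.04). Over the 10394 unused probe sets above the filter, 15.3% were higher throughout and 0.375% past the threshold. The 6 belonged to Tmem164, Rnf128, Adgrl2, Hmga2, Camk1 and Adam10. The probe set of Hmga2 among the 6 differed by 1.03, 0.96 and 0.99, and that of Adam10 by 1.07, 1.12 and 1.12.

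The lower genes had fewer further probe sets, 14 above the filter for 10 genes, and 23 of the 35 rest on a single probe set. Of the 14, 9 (64.3%) were lower in all 3 depletions, and 1, of Mras, was past the threshold (-0.75, -0.63 and -0.62). Some of the 9 were nearly flat, as for Dbp (-0.07, -0.03 and -0.03). A bright second probe set of Rian was nearly flat in J1 only (-0.05, -1.11 and -1.80). The 1 higher in all 3 was of Dnah8 (0.21, 0.40 and 0.13). The share lower throughout among all unused probe sets was 15.3%, with 0.0673% past the threshold. Fgf17 (-0.53, -0.88 and -1.10), Mical1 (-0.75, -0.96 and -0.42) and Lrrc2 (-0.78, -0.55 and -0.29) each had a second probe set of the same sign. A second probe set of Marf1 went the other way in E14, at -0.81, 1.07 and 0.79.

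Discordant probe sets were of several kinds. Some stayed flat, as for Acvr1, whose other pair lay between 3.56 and 3.79 on all arrays. Some differed in 1 line only. A second probe set of Ecpas differed by 2.77 in J1 and by -0.42 and -0.01 with the hairpins, and one of Wwc2 by 0.00 in J1 and 1.53 and 1.25 in E14. Both other probe sets of Galnt7 were flat with the hairpins, at 0.88, 0.03 and 0.04 and at 1.22, 0.02 and -0.02. The only other probe set of Atxn1 above the filter differed by -0.07, -0.56 and -0.01, and one of Stxbp5 by -0.04, -0.32 and -0.30. With the median over all probe sets in place of the brightest, the mean difference changed sign at Acvr1, Atxn1, Bin1, Npnt, Pofut1, Stxbp5 and Marf1, and 11 of the 29 higher and 25 of the 35 lower members still met the rule. Probe sets with the suffix s_at, shared by several transcripts, stood for 4 higher members (13.8%) and 4 lower members (11.4%), beside 6.35% of all genes. Those with x_at, whose probes can also match unrelated transcripts, stood for 0 higher and 2 lower members (5.71%), Sult6b1 and Mical1, beside 4.19%.

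**Figure D3:**
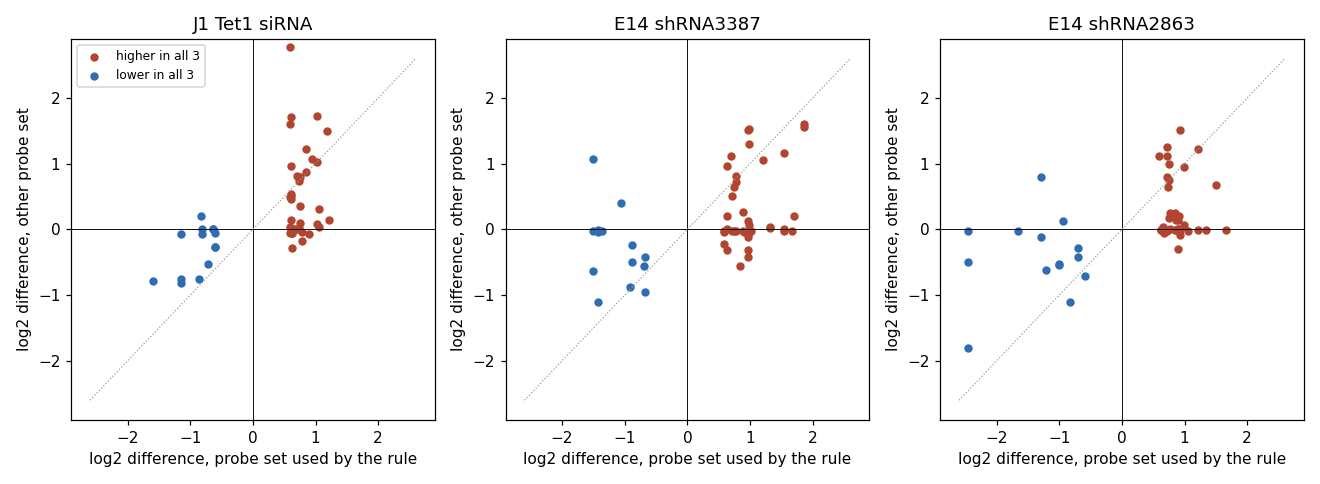
For members with further probe sets above the filter, the log2 difference of the probe set used (x axis) is set against that of each other probe set (y axis), in 1 panel per depletion with a dotted line of equality. Many points of the higher genes lie at 0 on the y axis with both hairpins, while most points of the lower genes lie below it.

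The depletion with the largest difference varied from member to member, and these are the differences the members were selected on. The J1 difference was the largest of the 3 in size at 6 higher and 12 lower members and the smallest at 17 and 20, where all 13613 genes had 5268 and 4678. Between the hairpins, shRNA3387 gave the larger size at 17 higher members and shRNA2863 at 12, and among the lower members the counts were 16 and 18, where all genes had 8173 and 5009. Cell line and reagent differ together between the siRNA and hairpin arrays, so they cannot be told apart here.

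The median gap between the hairpin arrays was 0.20 in size for the higher set, 0.11 for the lower set and 0.11 for all genes. The rule bounds this gap in part, since both hairpin differences had to pass 0.585 in 1 direction from the same scramble array. A gap of at least 0.585 was found at 5 of the 29 higher members above (Acvr1 0.87, Ptpn13 0.81, Gpsm1 0.79, Galnt7 0.67 and Tmem164 0.65) and 1 below (Pofut1, -0.64). Among the 35 lower members it was found at Spink1 (1.12) and Rian (1.03). Such gaps were seen at 3.53% of all genes above and 2.11% below.

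The 2 directions also differed in which line expressed the genes more. On the control arrays 21 of the 29 higher members (72.4%) were lower in E14 scramble than in J1 control, with a median difference of -0.76, while 29 of the 35 lower members (82.9%) were higher in E14, with a median of 0.60. Of all genes 42.9% were lower and 56.2% higher in E14, with a median of 0.02. At least 2-fold, 12 higher members were lower in E14 and 0 higher, and 11 lower members were higher in E14 and 1, Rcn3, lower, beside 4.84% of all genes lower and 3.52% higher. The widest gaps were those of Spink1 (4.22), Rpl39l (2.33) and Mical1 (1.98) on the one side and Rnf128 (-1.70), Ecpas (-1.49) and Camk1 (-1.48) on the other.

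The scramble array enters both hairpin differences and the line difference alike, so a low scramble value raises the former and lowers the latter. It was the lowest of the 5 arrays at 21 of the 29 higher members and the highest at 29 of the 35 lower members. Of all 13613 genes it was the lowest at 2241 and the highest at 3907. By the rule, only a control array can be the lowest at a higher member or the highest at a lower one. The J1 control was so at the other 8 higher members, ties included, and at the other 6 lower members. The depleted arrays, which the rule used as well, can be set against each other too, as the mean of the hairpin arrays minus the J1 siRNA array. Of the higher members 21 were lower in E14 (median -0.57), and of the lower members 27 were higher in E14 (median 0.72), where all genes had 43.7% lower, 54.2% higher and a median of 0.02. Both contrasts use arrays on which the members were selected, and neither was tested.

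**Figure D4:**
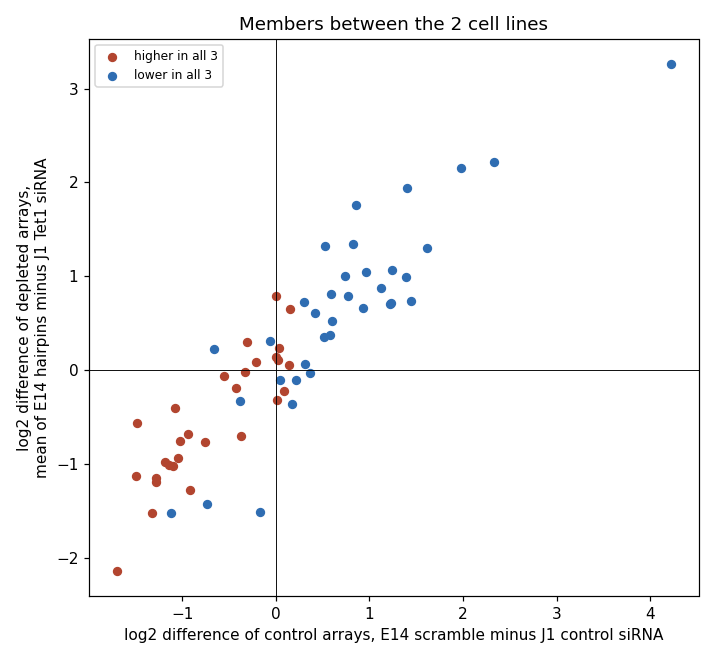
Each point is 1 member, with E14 scramble minus J1 control siRNA on the x axis and the mean of the hairpin arrays minus J1 Tet1 siRNA on the y axis, both log2. Most of the higher genes lie in the lower left and most of the lower genes in the upper right, with Spink1 at the far end.

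Gene length, which the rule did not use, differed between the directions. By RefSeq annotation of GRCm38.p6, which matched all 64 members, the genomic span from the first to the last annotated base had a median of 94.9 kb for the higher genes (quartiles 33.6 and 129 kb) and 12.4 kb for the lower genes (6.26 and 30.7 kb). The median over the 13539 genes matched was 23.0 kb. Longer than 60 kb were 19 of 29 higher members (65.5%) and 4 of 35 lower members (11.4%), beside 23.1% of all genes. The longest 3385 genes held 20 higher and 5 lower members, and the shortest 3385 held 3 and 14. The higher median was 58.6 kb for the genes found with the median over probe sets, and 53.3 kb, 60 kb and 62.7 kb with the siRNA, shRNA3387 or shRNA2863 array left out.

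Atxn1 (415237 bases) and Grik3 (223915 bases) are the longest higher genes, and Usp27x (3240), Gpx8 (3674) and Mex3b (4244) the shortest. Among the lower genes 2310039H08Rik (773 bases), 1700029P11Rik (1024), Ooep (1686) and Ltb (1799) are the shortest, and Dnah8 (248828), Mctp2 (229290) and Plekhg1 (227053) are exceptions at the long end. Over all genes, the median difference of the longest 3385 was -0.01, -0.01 and 0.00 in the 3 depletions, and that of the shortest 3385 was 0.00, -0.04 and -0.02. Signal of the beta-actin control probe sets fell off from the 3′ to the 5′ end by 0.63 and 0.31 on the J1 control and siRNA arrays and by 0.41, 0.51 and 0.54 on the scramble, shRNA3387 and shRNA2863 arrays. The same measure for Gapdh was -0.33 and -0.58 in J1 and -0.42, -0.46 and -0.46 in E14. From control to depleted arrays the actin value was thus lower in J1 and higher in E14, and the Gapdh value was lower in both. The 18S rRNA control read 6.05 and 5.76 in J1 and 11.43, 9.75 and 10.28 in E14, highest on the scramble array. The part of these in the results was not tested.

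Promoters of the higher genes held more CpG, though the difference from all genes depended on how probe sets were combined. In the RefSeq window from 250 bases before to 50 bases after the start (the first window listed for a gene), the median number of CpG dinucleotides was 27 for 25 higher genes with a sequence (quartiles 15 and 33), 14 for 28 lower genes (9.75 and 18.5) and 20 for 10924 genes in all. More CpG than that overall median was found at 16 higher genes (64%) and 6 lower genes (21.4%), beside 47.4% of all genes. The CpG count relative to that expected from the C and G content was at least 0.6 at 76% of higher, 53.6% of lower and 67.2% of all promoters, with medians of 0.82, 0.60 and 0.74. For 7 higher and 4 lower members the window belongs to a start more than 1000 bases inside the annotated gene, Adgrl2, Casp8 and Plekhg1 among them. Exceptions were Adgrl2 (4 CpG), Casp8 (5) and Gpsm1 (6) among the higher genes and B4galnt4 (37), Mras (36) and Tatdn2 (34) among the lower genes. The Gpsm1 window lies at the annotated 5′ end of the gene. For the genes found with the median over probe sets, the median CpG count was 20 for the higher set, equal to that of all genes. It was 12 for the lower set. With the siRNA, shRNA3387 or shRNA2863 array left out, the higher median was 24, 25 and 25.5.

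The 4 promoters that follow were picked for their CpG counts among the 12 members each way with the largest smallest difference, as the pair richest in CpG of the higher and the pair poorest in CpG of the lower genes. Each is the 250 bases before the transcript start that the window belongs to, 5′ to 3′ on the strand of the gene, from RefSeq GRCm38.p6, with every CpG in capitals. They are Sos2 at chr12:69681853-69682102 on the minus strand, Grik3 at chr4:125490446-125490695 on the plus strand, Plekhg1 at chr10:3872417-3872666 on the plus strand and Sult6b1 at chr17:78906993-78907242 on the minus strand. The start is the annotated 5′ end of the gene for Sos2 and Sult6b1, and lies 437 bases inside it for Grik3 and 132416 bases inside it for Plekhg1, whose window is thus that of an internal start.
Sos2: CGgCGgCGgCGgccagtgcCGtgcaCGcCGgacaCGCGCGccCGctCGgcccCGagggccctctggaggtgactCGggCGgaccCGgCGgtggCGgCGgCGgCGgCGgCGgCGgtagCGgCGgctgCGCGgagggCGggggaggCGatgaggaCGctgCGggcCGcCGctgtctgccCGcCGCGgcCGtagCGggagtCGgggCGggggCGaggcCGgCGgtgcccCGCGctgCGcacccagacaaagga
Grik3: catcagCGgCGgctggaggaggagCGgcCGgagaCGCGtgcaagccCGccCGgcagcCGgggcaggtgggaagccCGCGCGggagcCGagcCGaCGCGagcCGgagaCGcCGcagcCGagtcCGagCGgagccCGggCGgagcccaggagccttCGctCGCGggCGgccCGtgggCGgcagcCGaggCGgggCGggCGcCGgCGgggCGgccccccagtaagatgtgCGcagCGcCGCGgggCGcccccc
Plekhg1: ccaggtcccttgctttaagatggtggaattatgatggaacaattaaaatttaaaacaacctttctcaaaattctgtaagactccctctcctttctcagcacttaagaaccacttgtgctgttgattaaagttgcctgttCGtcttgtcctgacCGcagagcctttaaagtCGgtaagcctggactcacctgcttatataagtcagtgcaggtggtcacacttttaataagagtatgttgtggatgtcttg
Sult6b1: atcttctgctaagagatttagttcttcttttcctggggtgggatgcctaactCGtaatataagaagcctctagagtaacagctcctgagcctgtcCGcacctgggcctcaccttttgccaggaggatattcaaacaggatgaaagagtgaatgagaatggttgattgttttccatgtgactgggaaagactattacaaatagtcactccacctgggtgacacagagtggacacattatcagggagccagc
The Sos2 and Grik3 stretches hold 47 and 42 CpG and are 82.8% and 82.0% G and C, and those of Plekhg1 and Sult6b1 hold 3 and 2 CpG at 41.2% and 46.0%. Averaged over the depletions, Sos2 was 1.99-fold and Grik3 1.92-fold higher, and Plekhg1 was 2.49-fold and Sult6b1 2.13-fold lower.

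Core promoter words were searched on both strands of the 300-base windows. The GC box GGGCGG was found in 68% of higher, 46.4% of lower and 61.1% of all promoters, and it contains a CpG itself. CCAAT was found in 16%, 35.7% and 38.5%, TATAAA in 8%, 7.14% and 8.23%, and the E-box CACGTG, which also contains a CpG, in 4%, 10.7% and 9.93%. These are matches of letters, not sites.

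**Figure D5:**
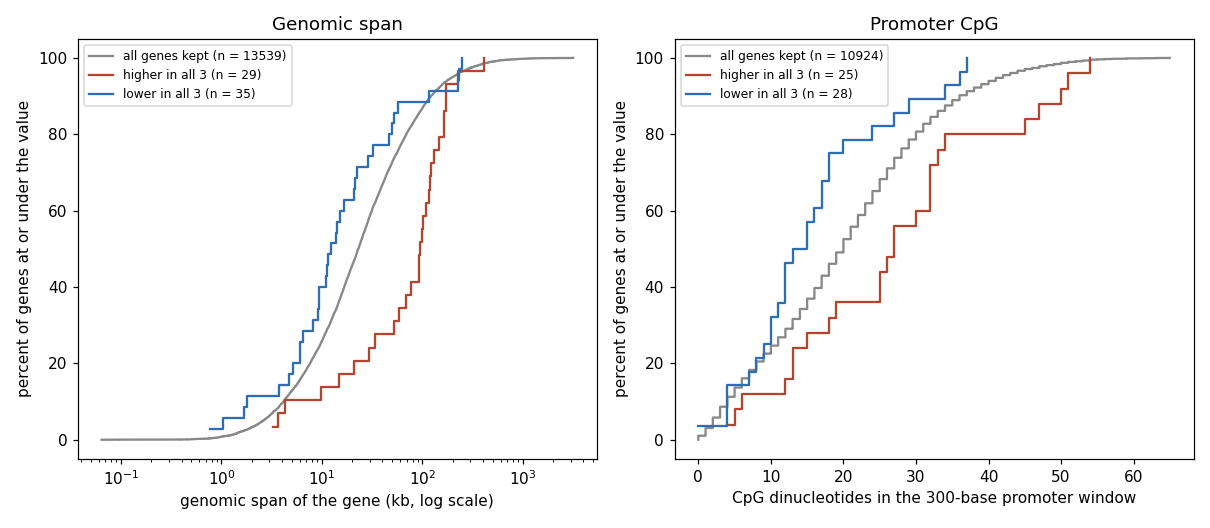
Cumulative percent of genes at or under a genomic span (left, kb on a log scale) and a number of CpG dinucleotides in the promoter window (right), for the higher members, the lower members and all genes kept. The curve of the higher genes lies to the right of that of all genes over most of both ranges, and that of the lower genes mostly to the left.

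Members were spread over many chromosomes. Chromosome 7 held 7 of the 35 lower members (20%) and 1 of the 29 higher members, beside 7.70% of all genes, and the X chromosome held 4 higher members (13.8%) and 0 lower, beside 3.57%. The closest pairs of members were Camk1 and Tatdn2, with starts 0.363 Mb apart and opposite directions, Dpysl3 and Spink1 (0.407 Mb, both lower), Rcn3 and Dbp (0.622 Mb, both lower) and Bin1 and Stard4 (0.823 Mb, both higher).

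Relatives of the members mostly did not share their shift, though several lists held more genes past the threshold than their size would give at the all-gene share. Of all genes, 2.91%, 5.39% and 3.63% were higher past it with the siRNA, shRNA3387 and shRNA2863. Lower past it were 6.09%, 3.36% and 3.26% in the same order. These shares are the background for every list below. Of 32 kept genes among Ras proteins, their regulators and effectors, 1, 3 and 2 were higher past the threshold and 1, 1 and 1 lower in J1 siRNA, shRNA3387 and shRNA2863, with medians of 0.02, 0.01 and 0.04. Besides Sos2 and Mras, only the phosphatase Ptpn11, which links receptors to Ras, passed in 1 direction in more than 1 depletion (0.29, 0.76 and 0.79). Of 13 non-receptor tyrosine phosphatases 1, 4 and 3 were higher and 1, 0 and 1 lower, and Ptpn9 differed by 0.14, 0.97 and 0.99. Of 25 tight junction and polarity genes 3, 5 and 3 were higher and 1, 1 and 0 lower, among them Cldn12 (0.23, 0.75 and 0.64) and Pard3 (0.17, 0.64 and 0.59).

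The piRNA and oocyte list, which holds Marf1 and Gpat2, had 16 genes kept, of which 0, 4 and 2 were higher and 6, 3 and 3 lower, with medians of -0.41, -0.06 and -0.02. Gtsf1, a piRNA pathway zinc finger protein, differed by -0.70, -0.84 and -0.22. The Tudor protein Tdrd5 (-0.44, 0.84 and 0.67) and Mael (-0.49, 0.66 and 1.25) were past the threshold upwards with both hairpins and had a negative J1 difference short of it. Of 16 folate enzymes 3 were lower with the siRNA and 1, Aldh1l2, with each hairpin, and 0 were higher. In the lymphotoxin and TNF list Ltb was the only gene of 14 past the threshold in 1 direction in more than 1 depletion.

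Among 20 integrins and matrix ligands kept, 2, 1 and 1 were higher and 3, 2 and 3 lower. The laminin chain Lama1 (-0.54, -0.67 and -1.17) and the nidogen Nid1 (0.22, -0.79 and -0.79) were opposite to Npnt with both hairpins. Of 18 SNAREs and their binding proteins 3, 4 and 2 were higher and 0, 1 and 0 lower, with Vamp8, a SNARE of late endosomes and secretory granules, at 0.82, 0.49 and 0.67. Of 18 genes of LIF signalling and its targets, 0, 2 and 0 were higher and 7, 0 and 0 lower, and 0 belonged to the set.

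In the other lists the counts past the threshold were small, though several exceeded the all-gene share for lists of their size. Of 10 kept genes around Atxn1 and Capicua 2, 1 and 3 were higher and 2, 0 and 0 lower, and of 8 RING ligases with a PA domain, the family of Rnf128, 1, 2 and 2 were higher and 0 lower. Of 7 glutamate receptor subunits only Grik3 was higher, and 0 were lower. Of 18 glycerolipid acyltransferases 1, 1 and 0 were higher and 1 lower in each depletion, the latter being Gpat2 throughout. Of 13 transglutaminases and cornified envelope genes 3, 0 and 2 were higher and 1, 2 and 1 lower, with the desmosomal linker Dsp at 0.68, -0.14 and 0.64. Of 4 Kazal inhibitors and trypsins only Spink1 passed, downwards each time. Of 16 genes of FGF and ERK feedback 1, 3 and 1 were higher and 4, 0 and 1 lower, and 0 were members.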

How the data were processed

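The values are the deposited log2 probe set summaries of 5 Affymetrix arrays; per the labels' protocols, biotinylated cRNA was made with the One Cycle kit from column-purified, DNase-treated RNA. The log2 scale was inferred from the range (1.38 to 14.12). Summary method, background correction and normalization are, for these arrays, not given in the sources used here. Precision is limited by the number of arrays. Values were used as deposited. Probe sets numbered 45101, of which 64 were array controls, 34945 had 1 symbol, 932 several and 9160 none in the platform annotation supplied. Each of 18193 genes was read from its brightest probe set by mean value. A gene was kept if any array exceeded its own filter level, the percentile 40 of probe sets other than controls; this kept 13619, 13613 without the 6 genes left out by the rule. No test was run: each group is 1 array, and the rule used every contrast. Members, 17 family lists, 6 marker lists and alternatives were chosen with earlier results of these data known, and the grouping by role was made after the members were seen. Full per-array levels are given for the 12 members each way with the largest smallest difference, for members of a family list and for those under the filter; family list genes past the threshold in 1 direction in at least 2 depletions are named. The code of the selection was checked on simulated data with planted shifts and little noise, which does not measure its error on these arrays. Gene spans and promoter sequences came from RefSeq GRCm38.p6 tables, with 13539 genes matched by Entrez identifier. Python 3.11.15, pandas 2.3.3 and numpy 2.4.6 were used. Alternatives were quantile normalization, median centring, other filters, other thresholds, the median over probe sets, low values raised to the filter level, and leaving out each depletion.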

Additional observations from a re-analysis of the deposited data

Results flagged for a closer look

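For 3 genes named beside the members, the J1 difference had one sign and both hairpin differences, all past the threshold, the other. The J1 differences did not reach the threshold (-0.44, -0.49 and 0.22), and the contrast between lines was not tested. The mean E14 difference minus the J1 difference was 1.20 for Tdrd5, 1.45 for Mael and -1.01 for Nid1.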

How the results depend on the processing

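No paired analysis was possible because each group holds 1 array, so that the groups share fewer than 2 replicate numbers; every difference is already within a line. The counts of 29 higher and 35 lower genes were 22 and 42 after quantile normalization, 25 and 34 after median centring, 29 and 35 with no filter, 28 and 35 with a filter at the 60th percentile, 29 and 32 when every array had to exceed the filter, and 29 and 33 with low values raised to it. Quantile normalization kept 21 of the higher and 33 of the lower members, and median centring 22 and 32. A threshold of 0.5 gave 48 and 57 genes, and 2-fold gave 1 and 4. With 1 depletion left out the counts were 255 and 222 (siRNA), 54 and 86 (shRNA3387) and 55 and 52 (shRNA2863), as fewer conditions then apply. Taking the median of each gene's probe sets, 23 higher and 31 lower genes were found, of which 11 and 25 were members, and the mean difference changed sign at Acvr1 (-0.03), Atxn1 (-0.21), Bin1 (-0.0667), Npnt (-0.0067), Pofut1 (-0.0067), Stxbp5 (-0.25) and Marf1 (0.0033). The median span of the higher genes was then 58.6 kb. It was 53.3 to 62.7 kb with 1 depletion left out, and 4.24 kb for the single gene at 2-fold. The median span of the lower genes was 29.6 kb at 2-fold and 19.2 kb without shRNA3387, and their median CpG count was 24 at 2-fold. With the median over probe sets, the median CpG count of the higher genes was 20, that of all genes. These span and CpG alternatives were added after seeing the data.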
